A study of Homo sapiens with 6 samples.

Results

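The genes described here are 10 components of the pathway that runs from interleukin-1 and Toll-like receptors to NF-kB: IRAK4, IRAK1, MYD88, TRAF6, NFKB1, NFKB2, RELA, REL, NFKBIA and TNFAIP3. They were chosen by symbol from a deposited table of 31142 genes, and all 10 were found, each under 1 identifier. RNA had been sequenced from 6 samples labelled as SKM-1, a human leukemia line derived from MDS, 3 of them labelled with S34F mutant U2AF1 and 3 with wild-type U2AF1 (S34F and WT below). Per the study, SKM-1 cells were stably transduced with lentivirus carrying FLAG-tagged U2AF1 in its mutant or its wild-type form, and RNA was taken after 96 h. The study also speaks of a vehicle control for the RNA-seq, and the WT titles carry a prefix that it uses for negative controls, so whether the WT samples carry the wild-type construct is known only from their titles. The transduced cells are a line that also keeps its own U2AF1, and the labels do not say whether the 3 replicates of a group come from separate transductions, so the p-values below measure the spread between these samples, which may be technical.

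In this pathway the activated receptor recruits the adaptor MYD88, which assembles with the kinases IRAK4 and IRAK1, and the ubiquitin ligase TRAF6 then passes the signal to the IKK complex. IKK releases NF-kB dimers, built from the products of RELA, REL, RELB, NFKB1 and NFKB2, from inhibitors such as the NFKBIA product IkB alpha. NFKBIA and TNFAIP3, which encodes the ubiquitin-editing enzyme A20, are themselves classical NF-kB target genes that shut the signal off. IRAK4 is of interest in MDS because mutant U2AF1 has been reported to favor a longer IRAK4 splice form. The deposited values are sums per gene and cannot show which splice form was present.

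Expression was given as FPKM, fragment counts scaled to transcript length and library depth, so levels of different genes can be set side by side. Approximate depths, read from the value of 1 fragment in single-exon genes, lay between 21.4 and 26.9 M fragments per library. The level of U2AF1 itself was 9.30 ± 0.159 FPKM over the S34F libraries (SD, n = 3) against 8.34 ± 0.595 FPKM over the WT libraries (SD, n = 3), which does not separate the mutant from the wild-type allele. U2AF1L5, a near-identical copy that can share its reads, had a level of 9.46 ± 0.301 FPKM over the S34F libraries (SD, n = 3) and of 9.52 ± 0.450 FPKM over the WT libraries (SD, n = 3), so the level of U2AF1 is uncertain. The labelled cell type was checked against its markers: of 12 monocytic markers, 4 reached a mean of 1 FPKM, while all 12 erythroid markers did. The 4 were CD68, LYZ, CD33 and ITGAM, with means of 46.3, 15.7, 2.44 and 2.42 FPKM. The monocytic markers MPO, S100A8 and FCN1 were at 0 in most libraries. The erythroid list summed to between 11784 and 13963 FPKM per library against 46.6 to 89.4 FPKM for the monocytic list. The markers thus go against SKM-1, a line of monocytic leukemia, and that the libraries are from SKM-1 is known only from their labels, which bears on every level below. The libraries numbered 3 stood apart from the other 4, with scores of 35.1 (S34F) and 12.9 (WT) on the first principal component, which held 47.9% of the variance, and negative scores elsewhere. For the 10 genes, a direction that turns without them is given below.

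The 10 genes spanned a wide range of levels. IRAK1 was the highest, at 55.2 FPKM on average (46.7 to 61.1 over the 6 libraries), above 93.1% of the 10942 genes with a mean of at least 1 FPKM. RELA followed at 13.9 FPKM (9.11 to 20.9) and did not overlap with IRAK1 in range. NFKBIA at 9.07, NFKB2 at 5.93 and MYD88 at 5.55 FPKM came next, and each overlapped in range with the gene above it. TRAF6 at 2.43 FPKM lay below MYD88 in all 6 libraries without overlap, and NFKB1 at 2.27 FPKM overlapped with TRAF6. IRAK4 had 1.14 FPKM, TNFAIP3 0.922 FPKM and REL 0.124 FPKM, of which REL alone did not overlap with the gene above it. The median ratio of IRAK1 to IRAK4 within a library was 61.5, although both kinases act in 1 complex, and it ranged from 23.1 in S34F replicate 3 to 71.8 in S34F replicate 2. REL was above the value of 3 fragments, which was at most 0.0125 FPKM for its longest transcript, in all 6 libraries.

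**Figure D1:**
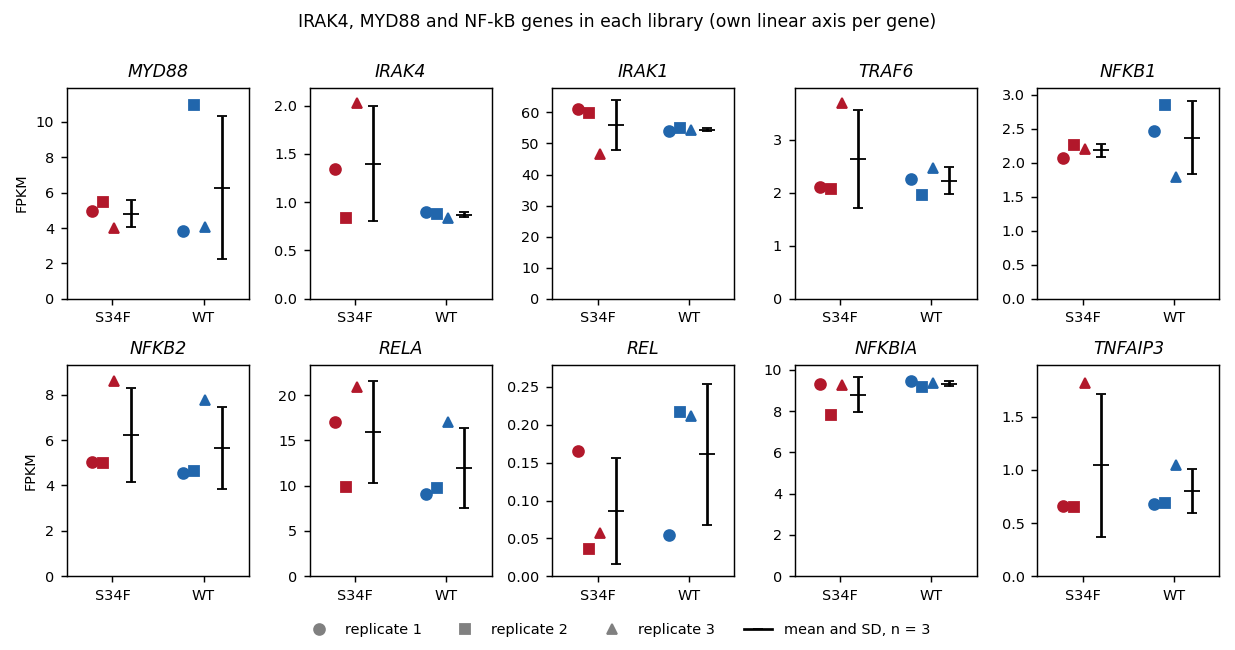
FPKM of the 10 genes in the 3 S34F (red) and 3 WT (blue) libraries, with the symbol giving the replicate number, and the mean and SD of each group in black. The values of the groups overlap for all 10 genes, and the triangles of NFKB2, RELA, TRAF6 and TNFAIP3 lie above the other libraries in both groups, for RELA only narrowly.

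To ask whether S34F changed the expression of these genes, S34F was compared with WT by limma on log2(FPKM + 1), fitted over the 10942 genes with a mean of at least 1 FPKM, and a gene was called at a fold over 1.5 with an unadjusted p under 0.05, the limits the study used. The fold here is that of FPKM + 1, which for low genes is smaller than that of FPKM. Of the 10 genes, 8 passed the filter on low values, and 0 of these 8 were called, where 0.585% of all genes tested were (0.21% as higher and 0.375% as lower in S34F). At an unadjusted p under 0.05 without a limit on the fold, 0 of the 8 passed as well, against 2.39% of all genes tested. Among all genes tested limma called 64, 262 had an unadjusted p under 0.05, and 0 had an adjusted p under 0.05 (Benjamini-Hochberg). The S34F and WT libraries overlapped for all 10 genes, whereas the groups did not overlap for 7.38% of the genes tested. The median log2 fold change of the 8 was 0.07, beside 0.01 over all genes tested. The adjusted p from limma was 1.00 for each of the 8, and the smallest two-sided p that exact permutation of 3 libraries against 3 allows is 0.1.

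**Figure D2:**
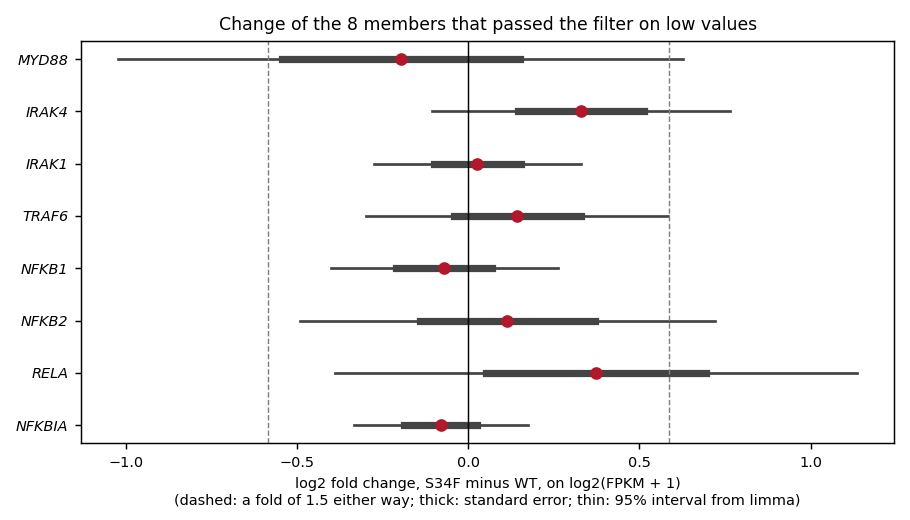
Log2 fold change (S34F minus WT) of the 8 genes that passed the filter, on log2(FPKM + 1), with the standard error (thick line) and the 95% interval from limma (thin line). Every interval includes 0, and those of MYD88, IRAK4, NFKB2 and RELA reach past a fold of 1.5 (dashed lines), with TRAF6 ending at it.

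Among the adaptors and kinases, IRAK4 (ENSG00000198001, plus strand of chromosome 12 from 43758944 to 43789543 in GRCh38) had 1.34, 0.835 and 2.02 FPKM in S34F replicates 1, 2 and 3 and 0.894, 0.878 and 0.841 FPKM in WT replicates 1, 2 and 3. The WT libraries were tight, S34F replicates 1 and 3 were above all of them, and S34F replicate 2 was below all of them. The S34F mean of 1.40 ± 0.597 FPKM (SD, n = 3) was 1.61 times the WT mean of 0.871 ± 0.0273 FPKM (SD, n = 3). On log2(FPKM + 1), which understates the change of so low a gene, the log2 fold change was 0.33 (standard error 0.18, 95% interval -0.11 to 0.76, unadjusted p = 0.116 from limma). Of the alternatives tried, leaving out S34F replicate 2 alone brought the unadjusted p of IRAK4 from limma under 0.05, to 0.0149, with a log2 fold change of 0.51. That was still under the 1.5-fold limit on the scale of FPKM + 1. The ratio of the plain FPKM means over all libraries, 1.61, was past 1.5, so the scale matters for this gene. IRAK4 was higher in S34F in 2 of 3 pairs of libraries with the same number (exact permutation p = 0.4 over the libraries, two-sided).

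IRAK1 (ENSG00000184216, chromosome X from 154010500 to 154019980, minus strand), the kinase that IRAK4 phosphorylates, had 61.1, 59.9 and 46.7 FPKM in S34F and 54.0, 55.1 and 54.4 FPKM in WT. S34F replicates 1 and 2 were above and S34F replicate 3 below every WT library. Its log2 fold change was 0.03 (standard error 0.13, 95% interval -0.27 to 0.33, unadjusted p = 0.839 from limma), and its sign turned without S34F replicate 1 (-0.04) and without S34F replicate 2 (-0.03). Without both libraries numbered 3 the value was 0.15 (limma, unadjusted p = 0.0223), well under a fold of 1.5.

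MYD88 (ENSG00000172936, chromosome 3 from 38138478 to 38143022, plus strand) had 4.99, 5.46 and 4.01 FPKM in S34F and 3.83, 10.9 and 4.05 FPKM in WT. WT replicate 2 was the highest of the 6, and WT replicate 1 the lowest, so the WT group enclosed the S34F group. The log2 fold change of -0.20 (standard error 0.35, 95% interval -1.02 to 0.63, unadjusted p = 0.588 from limma) turned to 0.23 when WT replicate 2 was left out.

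TRAF6 (ENSG00000175104, chromosome 11 from 36487027 to 36510272, minus strand), the ubiquitin ligase downstream of the IRAK kinases, had 2.12, 2.08 and 3.70 FPKM in S34F and 2.26, 1.96 and 2.47 FPKM in WT. S34F replicate 3 was the highest library, and S34F replicates 1 and 2 lay among the WT values. Its log2 fold change was 0.14 (standard error 0.19, 95% interval -0.30 to 0.58, unadjusted p = 0.467 from limma). It was -0.06 without S34F replicate 3 and -0.01 without both libraries numbered 3.

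Of the NF-kB subunits, RELA (ENSG00000173039, chromosome 11 from 65653596 to 65663094, minus strand), which encodes the transactivating subunit p65, had 17.0, 9.80 and 20.9 FPKM in S34F and 9.11, 9.71 and 17.0 FPKM in WT. The libraries fell near 2 levels, with S34F replicates 1 and 3 and WT replicate 3 at the upper one and the other 3 at the lower one. RELA was higher in S34F in 3 of 3 pairs of libraries with the same number, by 0.0927 FPKM in the pair numbered 2. Its log2 fold change was the largest of the 8, at 0.37 (standard error 0.32, 95% interval -0.39 to 1.14, unadjusted p = 0.284 from limma), and permuting the libraries gave an exact two-sided p of 0.3. RELA shares 9 exonic bases with AP001362.2, a lincRNA on the opposite strand at 1.24 FPKM, and the sources do not say whether the counting used strand.

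NFKB1 (ENSG00000109320, chromosome 4 from 102501329 to 102617302, plus strand), which encodes p105 and its processed form p50, had 2.07, 2.26 and 2.21 FPKM in S34F and 2.46, 2.84 and 1.79 FPKM in WT. WT replicates 1 and 2 were the highest and WT replicate 3 the lowest, with the S34F libraries between. The log2 fold change of -0.07 (standard error 0.14, 95% interval -0.40 to 0.26, unadjusted p = 0.634 from limma) became 0.03 without WT replicate 2. As RELA and NFKB1 did not move alike, the ratio of their levels within a library ran from 3.41 in WT replicate 2 to 9.53 in WT replicate 3, and was 8.18, 4.34 and 9.46 in the S34F replicates.

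REL (ENSG00000162924, chromosome 2 from 60881521 to 60931610, plus strand), which encodes the lymphoid subunit c-Rel, was close to silent, with 0.166, 0.0356 and 0.0566 FPKM in S34F and 0.0540, 0.217 and 0.212 FPKM in WT. Both groups held high and low libraries, and it was not tested because its mean was under 1 FPKM. The mean of 0.0861 FPKM in S34F was 0.534 times that of 0.161 FPKM in WT. In a fit without the filter, where a pseudocount of 1 FPKM compresses so low a gene, its log2 fold change was -0.10 (95% interval -0.28 to 0.09, unadjusted p = 0.251 from limma). REL shares 5702 exonic bases with AC010733.2, a non-coding gene on the same strand with 0.174 FPKM, so its value depends on how shared reads were assigned.

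NFKB2 (ENSG00000077150, chromosome 10 from 102394110 to 102402529, plus strand), which encodes p100 and p52 of the non-canonical arm, had 5.03, 4.997 and 8.62 FPKM in S34F and 4.55, 4.64 and 7.76 FPKM in WT. In each group the library numbered 3 was far above the other 2, and S34F exceeded WT in 3 of 3 pairs, each time by less than the gap to the library numbered 3. Its log2 fold change was 0.11 (standard error 0.26, 95% interval -0.49 to 0.72, unadjusted p = 0.668 from limma) and -0.11 without S34F replicate 3. Blocking on replicate number gave it a standard error of 0.0899 (limma, unadjusted p = 0.260).

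NFKB2, NFKBIA and TNFAIP3 are textbook targets of NF-kB, and the sequence just upstream of their starts is shown because NFKB2 and TNFAIP3 were high in the same 2 libraries while NFKBIA was level. The windows are from RefSeq on GRCh38.p14, with 250 bases before and 50 after an annotated start, printed along the strand of the gene. Capitals mark matches on either strand to the 10-base NF-kB consensus motif, known as kappa-B.
NFKB2, chr10:102394328-102394627, plus strand: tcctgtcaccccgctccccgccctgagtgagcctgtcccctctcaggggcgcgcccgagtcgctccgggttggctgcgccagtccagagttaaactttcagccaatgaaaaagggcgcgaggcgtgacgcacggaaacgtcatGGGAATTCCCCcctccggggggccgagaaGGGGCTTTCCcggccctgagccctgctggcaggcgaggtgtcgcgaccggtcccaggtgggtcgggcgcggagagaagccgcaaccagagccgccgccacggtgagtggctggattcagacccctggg
TNFAIP3, chr6:137867009-137867308, plus strand: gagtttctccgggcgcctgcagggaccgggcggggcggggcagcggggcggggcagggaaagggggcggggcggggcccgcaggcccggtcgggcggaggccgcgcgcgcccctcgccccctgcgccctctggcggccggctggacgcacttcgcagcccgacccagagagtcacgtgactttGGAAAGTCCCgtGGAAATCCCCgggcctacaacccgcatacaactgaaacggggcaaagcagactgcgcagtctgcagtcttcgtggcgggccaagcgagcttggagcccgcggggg
NFKBIA, chr14:35404700-35404999, minus strand: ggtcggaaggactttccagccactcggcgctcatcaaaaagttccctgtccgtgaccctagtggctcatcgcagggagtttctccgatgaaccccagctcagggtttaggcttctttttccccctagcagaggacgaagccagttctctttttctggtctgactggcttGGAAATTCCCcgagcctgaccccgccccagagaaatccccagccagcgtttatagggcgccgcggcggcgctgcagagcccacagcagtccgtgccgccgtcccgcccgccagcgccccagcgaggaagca
The NFKB2 window, at the middle one of 3 annotated starts, held 3 matches, of which the first 2 overlap in all but 1 base, the TNFAIP3 window held 2 and the NFKBIA window 1. The NFKB2 windows at the first and last starts held 0 and 2 matches, so the one printed is the one with the most. The rates that follow are per window and make no allowance for such a choice. At least 1 match was found in 11.3% of the 35116 windows of this length in the table, at least 2 in 2.04% and at least 3 in 0.370%. Of the 10 genes, all of which had a window, 6 had a match in at least 1 of their windows: IRAK1, NFKB1, NFKB2, NFKBIA, REL and TNFAIP3. The windows of IRAK4, MYD88, RELA and TRAF6 did not hold these letters. Of the genes with both libraries numbered 3 above the others, NFKB2 and TNFAIP3 had matches, and RELA and TRAF6 had none. IRAK1, NFKB1, NFKBIA and REL had matches without that rise, and IRAK4 and MYD88 had neither. Whether matches go with these levels was not tested. A match describes the sequence and does not show that the site is bound in these cells.

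**Figure D3:**
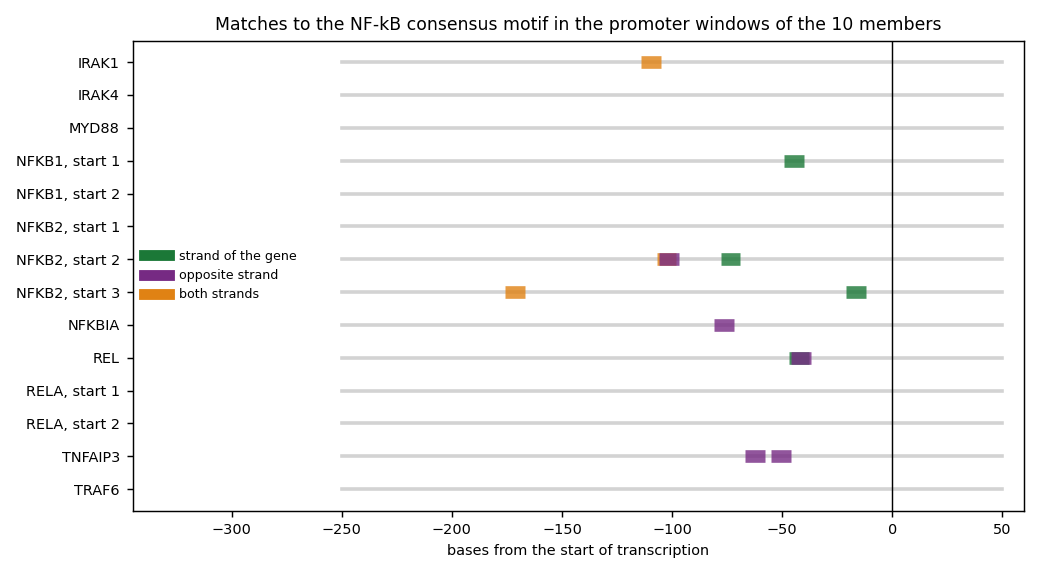
Positions of matches to the NF-kB consensus motif in the 14 RefSeq promoter windows of the 10 genes, in bases from the annotated start, colored by strand. Grey lines are the windows from 250 bases before to 50 after the start, and 7 of the 14 hold a match, all of them upstream of the start.

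Of the 2 inhibitors, NFKBIA (ENSG00000100906, chromosome 14 from 35401511 to 35404749, minus strand) was the steadiest of the 10 genes relative to its level, with 9.30, 7.82 and 9.28 FPKM in S34F and 9.44, 9.18 and 9.37 FPKM in WT. S34F replicate 2 was the lowest, and the other 5 libraries lay within 0.251 FPKM of each other. NFKBIA was lower in S34F in each of the 3 pairs of libraries with the same number, but S34F replicate 1 lay above WT replicate 2. Its log2 fold change was -0.08 (standard error 0.11, 95% interval -0.33 to 0.17, unadjusted p = 0.480 from limma), which was -0.01 without S34F replicate 2.

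TNFAIP3 (ENSG00000118503, chromosome 6 from 137867188 to 137883312, plus strand) had 0.658, 0.652 and 1.82 FPKM in S34F and 0.677, 0.684 and 1.04 FPKM in WT. The 4 libraries numbered 1 and 2 were nearly equal, and those numbered 3 were higher in both groups. Its mean of 0.922 FPKM left it out of the test, and in a fit without the filter its log2 fold change was 0.14 (95% interval -0.46 to 0.74, unadjusted p = 0.587 from limma), and permuting the libraries gave an exact two-sided p of 1. Without the libraries numbered 3 the direction turned, as both S34F values lay below both WT values. TNFAIP3 shares 95 exonic bases with an antisense gene, AL357060.1, at 0.189 FPKM.

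In 4 of the 10 genes both libraries numbered 3 were above the other 4, which is given as a description without a test. In NFKB2 the mean of the 2 libraries numbered 3 was 1.70 times that of the other 4, in RELA 1.66 times, in TRAF6 1.47 times and in TNFAIP3 2.14 times. Of the 8 genes that passed the filter, 3 had both libraries numbered 3 above the other 4 and 0 had both below, where 17.9% and 25.1% of all genes tested did. RELA belongs there narrowly, as WT replicate 3 exceeded S34F replicate 1 by 0.0726 FPKM. The others did not follow this division: IRAK4 was high in S34F replicate 3 and at the WT level in WT replicate 3, NFKBIA had a ratio of 1.04, and IRAK1, MYD88 and NFKB1 had ratios of 0.878, 0.639 and 0.829 with overlapping libraries. The monocytic marker list summed to 76.2 FPKM in S34F replicate 3 against 56.3 and 46.6 in S34F replicates 1 and 2, and to 89.4 FPKM in WT replicate 3 against 68.2 and 73.1 in the others. The erythroid list had its lowest sum in WT replicate 3 and its next lowest in S34F replicate 3. The members of a list did not move alike. LYZ had 8.52, 8.82 and 23.2 FPKM in S34F and 18.8, 17.0 and 17.6 FPKM in WT. CD68 had 43.2, 32.9 and 46.3 FPKM in S34F and 42.0, 48.9 and 64.6 FPKM in WT. Both libraries numbered 3 were above the other 4 in ALAS2, below them in HBG1, HBG2, HBA1, HBA2, GATA1 and TFRC, and overlapping in the other erythroid markers. The part of these marker differences in the values of the 10 genes was not tested, and in bulk samples a change in the share of a cell type cannot be told apart from a change in RNA per cell.

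**Figure D4:**
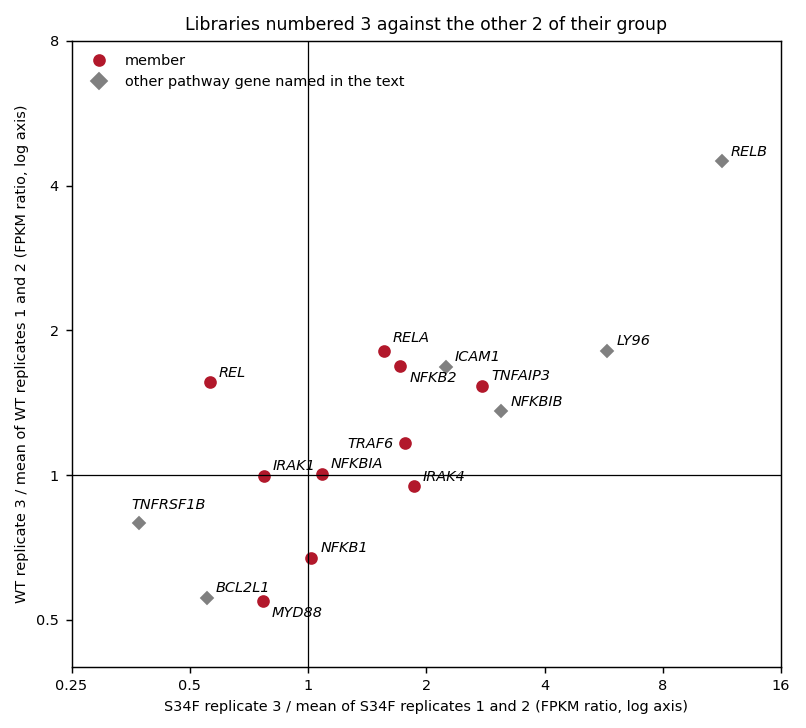
FPKM of the library numbered 3 over the mean of the other 2 libraries of its group, for S34F (horizontal) and WT (vertical), on log axes, for the 10 genes (red) and 6 other pathway genes (grey). TNFAIP3, NFKB2, RELA and TRAF6 lie above 1 on both axes, and NFKBIA lies near 1 on both.

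The rest of the pathway was read from a list of 78 further genes, of which 72 had a row (the other 6 were not analysed here) and 38 passed the filter. By the limits of the study 0 of the 38 were called by limma (0.585% of all genes tested were), and 1 had an unadjusted p under 0.05, against 2.39% of all genes tested. That gene, named after its value was seen, was RNF31, which encodes the ubiquitin ligase HOIP of the linear ubiquitin complex. It had 3.54, 3.64 and 3.63 FPKM in S34F and 2.39, 2.77 and 3.24 FPKM in WT, without overlap. Its log2 fold change was 0.28 (standard error 0.12, 95% interval 0.01 to 0.56, unadjusted p = 0.0455 and adjusted p = 1.00 from limma), under the 1.5-fold limit. The groups did not overlap for 2 of the 38 genes, against 7.38% of all genes tested, and the median log2 fold change of the 38 was 0.03.

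The ligands and receptors on the list were for the most part low, and they include TNF and its receptors TNFRSF1A and TNFRSF1B, which signal to NF-kB without MYD88. IL1A, IL1B and TNF had means of 0.0158, 0.0176 and 0.0195 FPKM, and IL18 had 1.07 FPKM. IL1B did not exceed 3 fragments in any library, and IL1A and TNF exceeded them in 1 library each. Of 14 receptor genes with a row, 4 passed the filter: TNFRSF1B at 18.9 FPKM, TNFRSF1A at 8.81 FPKM, LY96, the TLR4 co-receptor MD-2, at 4.87 FPKM, and IL1R1 at 1.18 FPKM. TLR4 had 0.0289 FPKM on average and TLR2 0.00385 FPKM, and TLR2 did not exceed 3 fragments in any library. LY96 had 1.42, 1.75 and 9.15 FPKM in S34F and 3.59, 5.27 and 8.03 FPKM in WT. Its libraries numbered 3 were the highest of each group, and the fold change was -0.65 on the log2 scale (limma, standard error 0.56, unadjusted p = 0.284). LY96 was the 1 gene of the 38 called, as lower in S34F, when S34F replicate 3 or both libraries numbered 3 were left out. In those fits 180 and 183 of all 10942 genes were called. Without both libraries numbered 3 its adjusted p from limma was 0.15.

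Most of the signaling genes downstream of the receptors were measurable. Of 19 further adaptors, kinases and ubiquitin enzymes 15 passed the filter, led by UBE2V1 at 33.8, TRAF2 at 15.4 and SHARPIN at 15.0 FPKM, and the IKK subunits IKBKG, CHUK and IKBKB had means of 6.69, 2.69 and 2.36 FPKM. MAP3K14, which encodes NIK, the kinase that activates IKK in the non-canonical arm, had 1.20 FPKM. IRAK3, the inhibitory IRAK family member of monocytes, had 0.00136 FPKM and did not exceed 3 fragments in any library, while IRAK2 had 3.15 FPKM. Of the other subunits and inhibitors the highest were NFKBIB at 13.7, TNIP1 at 10.5 and TNIP2 at 9.23 FPKM. RELB, named after its values were seen, showed the division by replicate number most steeply, with 0.509, 0.487 and 5.64 FPKM in S34F and 0.830, 0.702 and 3.44 FPKM in WT. The 2 libraries numbered 3 averaged 7.18 times the other 4 in this partner of the NFKB2 product, whereas its log2 fold change between S34F and WT was 0.04 (unadjusted p = 0.958 from limma). Without the libraries numbered 3 it was -0.24 (unadjusted p = 0.0501 from limma). In that fit 1846 of the 10942 genes tested had an unadjusted p under 0.05 from limma. NFKBIB had 10.6, 9.56 and 31.3 FPKM in S34F and 9.04, 9.33 and 12.5 FPKM in WT.

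Among 22 NF-kB target genes 8 passed the filter and 0 were called. The highest were JUNB at 61.7, BCL2L1 at 48.7 and ICAM1 at 14.7 FPKM, while the chemokines CXCL8 and CXCL1 had 0.312 and 0.0052 FPKM and IL6 had 0.0682 FPKM. CXCL1 did not exceed 3 fragments in any library, and IL6 exceeded them in 2. ICAM1, the adhesion molecule, had 10.7, 10.5 and 23.7 FPKM in S34F and 12.2, 11.5 and 19.9 FPKM in WT, with both libraries numbered 3 above the rest. BCL2L1, which encodes the anti-apoptotic Bcl-xL, went the other way, with 58.3, 57.6 and 32.0 FPKM in S34F and 44.1, 68.8 and 31.4 FPKM in WT. Over the 38 genes both libraries numbered 3 were above the other 4 in 8 and below them in 7, against 17.9% and 25.1% of all genes tested, so as a list these genes did not stand out by replicate number.

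**Figure D5:**
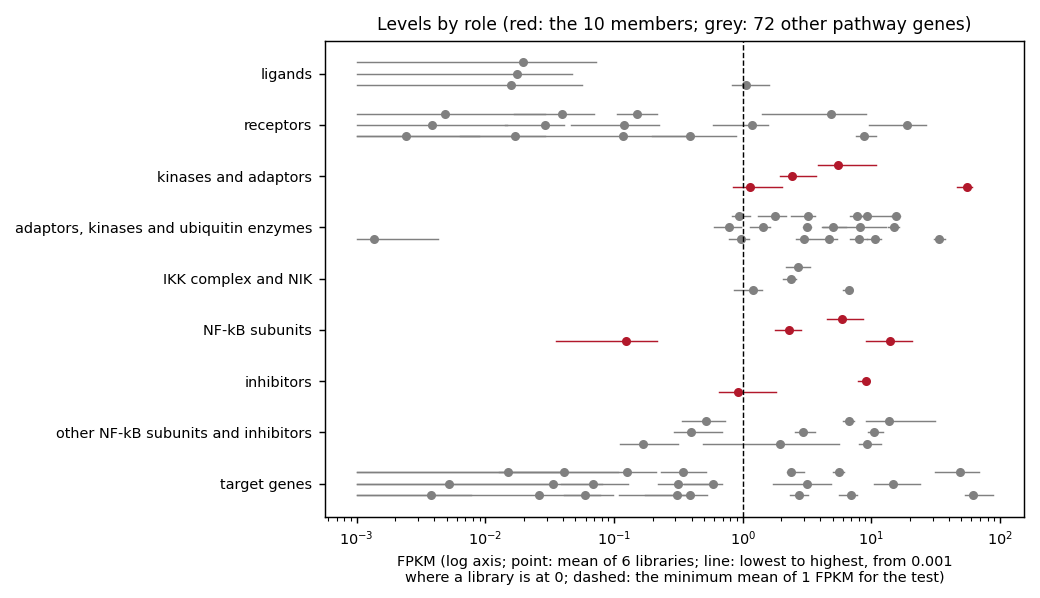
Mean FPKM over the 6 libraries (points) and lowest to highest value (lines) on a log axis, by role, for the 10 genes (red) and 72 other pathway genes (grey). IL1A, IL1B, TNF, most receptors, CXCL8 and CXCL1 lie left of the dashed line at 1 FPKM, and the IKK complex, NIK and all but REL and TNFAIP3 of the 10 genes lie right of it.

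The genes whose profile over the 6 libraries was most like that of IRAK4 were sought among the other 10941 genes tested, by the root mean square difference of log2(FPKM + 1) after centring each gene on its mean. They were MIR6850, GZF1 and RNF114, at 0.065, 0.081 and 0.081 on the log2 scale, where the SD of IRAK4 itself was 0.27. GZF1 had 2.55, 1.90 and 3.14 FPKM in S34F and 1.73, 2.05 and 1.82 FPKM in WT, the same order of S34F libraries as in IRAK4. Profiles closer than 0.2 were found for 11.3% of the genes compared, so these 3 are the nearest of many.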

How the data were processed

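RNA-seq values of 6 samples were used. The authors deposited 1 table of FPKM per gene and library. Although it is named as raw counts, 0% of the values above 0 were whole. StringTie and edgeR stand in the submitters' processing notes without roles or versions. The aligner, genome build and annotation are not given in the sources used here. The columns of the authors' own comparison (fold changes, p-values, q-values and calls) were not used. All per-sample columns were mapped by title.

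S34F was compared with WT by limma 3.58.1 (R 4.3.3) on log2(FPKM + 1) with a mean-variance trend, over genes with a mean of at least 1 FPKM, with Benjamini-Hochberg adjustment over all 10942 genes. Exact permutation tests used scipy 1.17.1, and pandas 2.3.3, numpy 2.4.6, Python 3.11.15 and matplotlib 3.10.9 were used for tables and figures. Called genes had a fold over 1.5 on this scale and an unadjusted p under 0.05. The genes and lists were chosen with earlier results of these data known. Named from the pathway list were called genes, then the 3 of each role with the highest mean FPKM, and other genes only where said or to show low levels.

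The fit was first checked on data of known answers. Gene positions are from GENCODE 29 (GRCh38), which holds 31002 of the 31142 identifiers. FPKM carry no counts. Depths from single-exon genes are approximate, and limits of 3 fragments cover counting error only. Deviations from the group means correlated at 0.212, 0.174 and 0.380 over genes between the libraries numbered 1, 2 and 3, so same-numbered libraries were treated as pairs in an added fit that blocks on replicate number. S34F replicate 2 correlated with WT replicate 1 at 0.197 and S34F replicate 1 with WT replicate 2 at 0.134, so the numbers 1 and 2 are not set apart by these values. Other alternatives were median-ratio and quantile scaling, a pseudocount of 0.1, no filter, no trend, each library and both libraries numbered 3 left out, and no limit on the fold.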

Additional observations from a re-analysis of the deposited data

How the results depend on the processing

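Of the 8 genes tested 0 were called under any of the 14 alternatives, and REL and TNFAIP3, tested only without the filter on low values, were not called there. For REL that outcome was fixed, as its highest value of 0.217 FPKM cannot give a fold of 1.5 on FPKM + 1. Over the 8, 97 of 104 log2 fold changes kept their sign, including all 13 each for IRAK4, RELA and NFKBIA. The fits without the filter, without the trend and with the block change only the standard error. They leave the log2 fold change as it was, so these fits could not turn a sign and are no check on direction. Single limits were crossed by RELA, past a fold of 1.5 without S34F replicate 2 (0.67, unadjusted p = 0.0536 from limma) and without WT replicate 3 (0.64, unadjusted p = 0.0915 from limma), and by IRAK4 and IRAK1, whose unadjusted p from limma fell to 0.0149 without S34F replicate 2 and to 0.0223 without both libraries numbered 3. The sign turned for IRAK1 without S34F replicate 1 (-0.0413) and without S34F replicate 2 (-0.03), for TRAF6 without S34F replicate 3 (-0.0578) and without both libraries numbered 3 (-0.0054), for NFKB2 without S34F replicate 3 (-0.11), and for MYD88 (0.23) and NFKB1 (0.0327) without WT replicate 2. With 1 library left out, the log2 fold change of IRAK1 ran from -0.0413 to 0.15, of TRAF6 from -0.0578 to 0.25, of NFKB2 from -0.11 to 0.33, of MYD88 from -0.43 to 0.23, of NFKB1 from -0.20 to 0.0327, of IRAK4 from 0.15 to 0.51 and of RELA from 0.16 to 0.67. In the same fits 66 to 180 genes were called over the whole table (180 without S34F replicate 3), 0 to 1 of the pathway list and 0 to 3 genes at an adjusted p under 0.05 from limma (1 without S34F replicate 1, 3 without WT replicate 3). Without both libraries numbered 3 the counts were 183 genes, 1 pathway gene and 8 at an adjusted p under 0.05. A pseudocount of 0.1 gave 122 genes. With no limit on the fold, 262 genes and 1 pathway gene passed. The cause of these shifts was not tested. With the replicate number as a block, 87 genes were called, 443 had an unadjusted p under 0.05 against 262 without the block, 0 had an adjusted p under 0.05, and no call among the 8 genes or the pathway list changed. Median-ratio scaling moved the median of all genes from 0.015 to 0.0055 and no direction among the 8. The depth is known only approximately. For IL1A, IL1B, TNF, TLR2, IRAK3 and CXCL1 no smaller difference can be resolved than a few fragments allow. REL was over 3 fragments in all 6 libraries, but its value depends on how reads shared with AC010733.2 were assigned.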
